A study of Homo sapiens with 6 samples.

Results

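The interferon regulatory factors (IRF) and their BATF partners were followed in BL-2, an established Burkitt lymphoma cell line, after exposure to lipopolysaccharide (LPS), the outer membrane component of Gram-negative bacteria. The members are 10 genes chosen by name, IRF1, IRF2, IRF3, IRF4, IRF5, IRF7, IRF8, IRF9, BATF and BATF3. They are represented by all probe sets that the platform's annotation gives to exactly 1 gene symbol, which made 15 of the 54613 probe sets tested and 10 of 19775 genes. One group received LPS for 6 h (3 arrays) and the other had no treatment (control, 3 arrays). All 6 samples are total RNA of the same line, so every result belongs to 1 cell line, and the labels do not say whether samples of a group came from separate cultures. The p-values therefore reflect only how far these samples vary, and that variation may be technical. The genes were proposed with LPS minus control results of these same arrays known, so their values, calls and p-values describe these arrays and are not independent evidence.

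IRF proteins share an amino-terminal DNA-binding domain with conserved tryptophans that recognises GAAA repeats, the core of the interferon-stimulated response element (ISRE). IRF3 and IRF7 are switched on by the kinases TBK1 and IKK-epsilon and drive type I interferon genes, IRF9 binds DNA within a complex that carries interferon signals to the nucleus, and IRF5 acts downstream of MYD88. IRF4 and IRF8 are largely restricted to immune cells and bind DNA weakly alone. They are recruited by the ETS factors PU.1 and SPIB, or by BATF and BATF3, small basic leucine zipper proteins that pair with JUN proteins. In B cells IRF8 is known for its part in the germinal centre state and IRF4 for its part in the passage to plasma cells.

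Values are on the log2 scale, so a difference of 1 is a doubling. Array medians ran from 6.42 to 6.47 and the lowest values lay near 5.5, so differences of probe sets close to the median may be compressed. The labelled cell type was checked against markers. All 5 B cell markers measured (MS4A1, CD79A, CD79B, PAX5 and CD22) and 5 of 6 germinal centre markers lay more than 1 above the array medians, against 0 of 7 monocyte and 0 of 6 T and NK cell markers. The exceptions in the other lists were CD1C among 5 dendritic cell markers and COL1A1 among 6 fibroblast and epithelial ones. The mean over the 7 monocyte markers ran from 6.23 to 6.30 on LPS arrays and from 6.26 to 6.31 on control arrays, and that over the 5 dendritic cell markers from 6.57 to 6.60 on LPS arrays and from 6.48 to 6.60 on control arrays. The level of the hybridisation controls parted the arrays into set A, with LPS 1, LPS 2 and control 1, and set B, with LPS 3, control 2 and control 3. Differences within each set stand beside the main results below, and each set rests on 1 control or 1 LPS array. In bulk RNA a change in the share of cells that express a gene and a change in RNA per cell cannot be told apart.

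Among the 10 genes BATF rose after LPS, IRF4 was higher and IRF8 lower on every LPS array without passing the test across all probe sets, and the 7 others lay within 0.15 of their control level. The limma test called 1 of the 15 probe sets, where 0.264% of all tested probe sets were called. By the brightest probe set of each gene it called 1 of 10 genes, against 0.389% of all genes, and with a block on the array sets 3 of 10 (BATF, IRF4 and IRF8), against 2.02% of all genes. The LPS and control values did not overlap in 4 of the 15 probe sets, against 13.4% of all tested probe sets. At an unadjusted p under 0.05 there were 4 of 15, against 8.08%. The median difference was 0.033 over the member probe sets and 0.0029 over all probe sets.

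**Figure D1:**
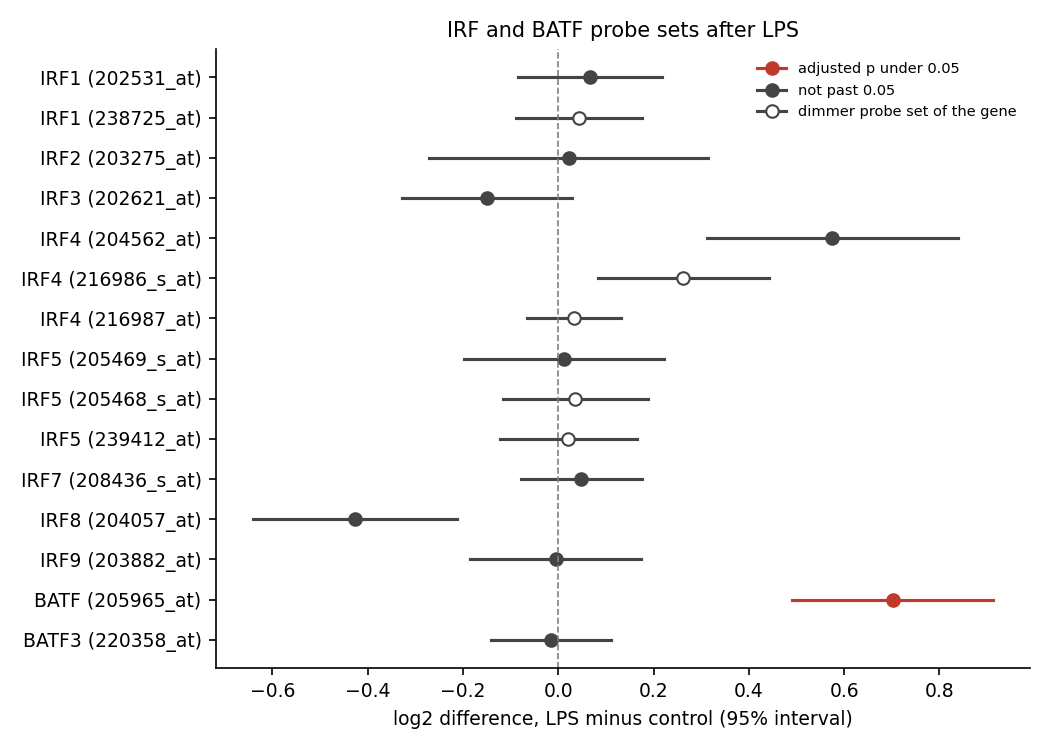
Log2 difference, LPS minus control, of each of the 15 probe sets (rows) with its 95% interval, n = 3 arrays per group. Filled points are the brightest probe set of a gene and open points its dimmer ones. BATF, in red, is the probe set that passed at an adjusted p of 0.05, and the intervals of the 2 brighter IRF4 probe sets and of IRF8 also lie clear of 0.

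BATF, the AP-1 family partner that lacks a transactivation domain of its own and cooperates with IRF4 and IRF8 on composite elements, had values of 9.18, 9.50 and 9.51 on the LPS arrays, against 8.67, 8.69 and 8.72 on the control arrays. The 3 controls lay within a narrow band, all LPS values were above it, and LPS 1 was the lowest of its group. Mean levels were 9.40 ± 0.19 after LPS and 8.70 ± 0.026 in control (SD, n = 3 each). The rise of BATF was 0.70 on the log2 scale, which is 1.63-fold (SE 0.098, 95% interval 0.49 to 0.91, limma adjusted p = 0.00846). Set A alone gave 0.67 and set B alone 0.81. Without LPS 2 it was 0.65 (limma adjusted p = 0.099) and without control 3 it was 0.72 (limma adjusted p = 0.0846), so the call is lost without either array while the size is kept. The gene has 1 probe set, so no second probe set measures it.

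BATF3, its close relative, known in mouse for the development of cross-presenting dendritic cells, stood at 6.47, 6.60 and 6.45 on LPS arrays and at 6.54, 6.52 and 6.50 on control arrays. The groups overlapped, with a difference of -0.02 (95% interval -0.14 to 0.11, limma adjusted p = 0.975). This probe set lies at the array median, where no level above background can be claimed for BATF3. BATF2, the family's remaining BATF protein and not among the 10, gave -0.05 (limma adjusted p = 0.908) at a level 0.17 above the array medians.

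IRF4 had values of 10.98, 10.84 and 10.64 on LPS arrays by its brightest probe set, against 10.44, 9.99 and 10.30 on control arrays. Every LPS value exceeded every control value, with LPS 3 and control 1 closest to each other. The means were 10.82 ± 0.17 after LPS and 10.24 ± 0.23 in control (SD, n = 3 each), a difference of 0.58, or 1.49-fold (SE 0.12, 95% interval 0.31 to 0.84), which did not pass (limma adjusted p = 0.0852). Set A alone gave 0.46 and set B alone 0.50. A block on the array sets gave 0.48, which passed (limma adjusted p = 0.00189), in a fit that called 1.34% of all probe sets.

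The second IRF4 probe set, dimmer than the first, pointed the same way, with 7.83, 7.68 and 7.51 on LPS arrays and 7.47, 7.34 and 7.43 on control arrays. Its groups did not overlap, and its difference of 0.26 did not pass (limma adjusted p = 0.343). The third lay 0.65 below the array medians, at 5.79 to 5.85 on LPS arrays and 5.73 to 5.83 on control arrays, and gave 0.03. It is among the dimmest signals of the table and its groups overlapped. Averaged over the 3 probe sets the IRF4 difference was 0.29.

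IRF8 moved the opposite way to IRF4. Its single probe set read 10.64, 10.49 and 10.73 on LPS arrays and 10.92, 11.11 and 11.11 on control arrays. All LPS values lay below all controls, and control 1 was the control nearest to them. The means were 10.62 ± 0.12 after LPS and 11.05 ± 0.11 in control (SD, n = 3 each), a difference of -0.43 (SE 0.10, 95% interval -0.64 to -0.21), or 1.34-fold higher in control, which did not pass (limma adjusted p = 0.13). The mean over the 6 germinal centre markers was lower too, at 9.15 to 9.29 on LPS arrays and 9.54 to 9.64 on control arrays. Of the 6, 1 was called, MYBL1, fallen by 0.56 (limma adjusted p = 0.0288), against 0.389% of all genes called. SERPINA9, also on that list, gave -0.05 with overlapping groups. A block on the array sets called MYBL1 at -0.51 and STAP1 at -0.47 (limma adjusted p = 0.00137 and 0.000841). It also called CD38 at -0.38 and BCL6 at -0.30 (limma adjusted p = 0.00954 and 0.0467), where 2.02% of all genes were called. MME at -0.27 and SERPINA9 at -0.07 did not pass with it (limma adjusted p = 0.082 and 0.851). The part of this lower marker mean in the IRF8 difference was not tested. Set A alone gave -0.35 and set B alone -0.38, and a block on the array sets gave -0.37, which passed (limma adjusted p = 0.00692). Quantile normalisation, which forces the 6 arrays to 1 distribution, also brought both factors past the threshold, IRF4 at 0.53 (limma adjusted p = 0.0298) and IRF8 at -0.47 (limma adjusted p = 0.0154). So did leaving out control 1, with 0.68 for IRF4 (limma adjusted p = 0.0175) and -0.49 for IRF8 (limma adjusted p = 0.0462), and all controls left are then in set B.

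**Figure D2:**
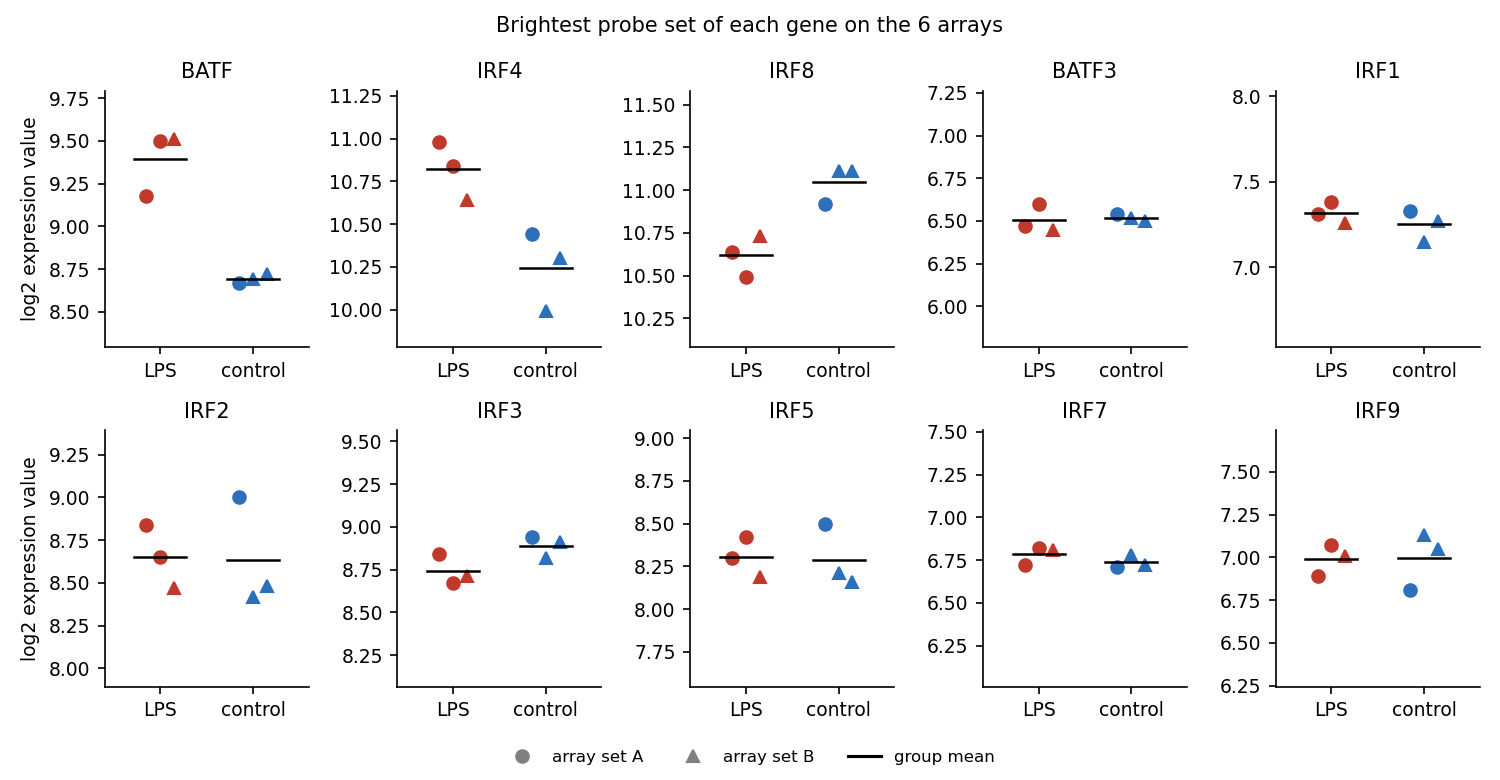
Log2 expression value (vertical axis, each panel spanning 1.5 units) of the brightest probe set of each of the 10 genes on the 3 LPS (red) and 3 control (blue) arrays; circles are array set A, triangles set B, and lines group means. LPS and control points are apart for BATF, IRF4 and IRF8 and overlap for the 7 other genes.

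Since IRF4 and IRF8 are related factors that compete for the same partners, their difference was also taken within each array. IRF4 minus IRF8 was 0.34, 0.35 and -0.08 on LPS arrays, against -0.48, -1.12 and -0.81 on control arrays. The lowest LPS array, LPS 3, still lay above the highest control, control 1. The means were 0.20 ± 0.25 after LPS and -0.80 ± 0.32 in control (SD, n = 3 each), a shift of 1.0 on the log2 scale, or a doubling of the ratio of the IRF4 to the IRF8 signal. Leaving out an array gave shifts from 0.84 to 1.16, and averaging each gene's probe sets gave 0.72. The shift is the sum of both changes above and adds no evidence to them. The zero of the scale has no meaning, because the 2 probe sets differ in brightness per transcript, so it does not say which factor is the more abundant.

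**Figure D3:**
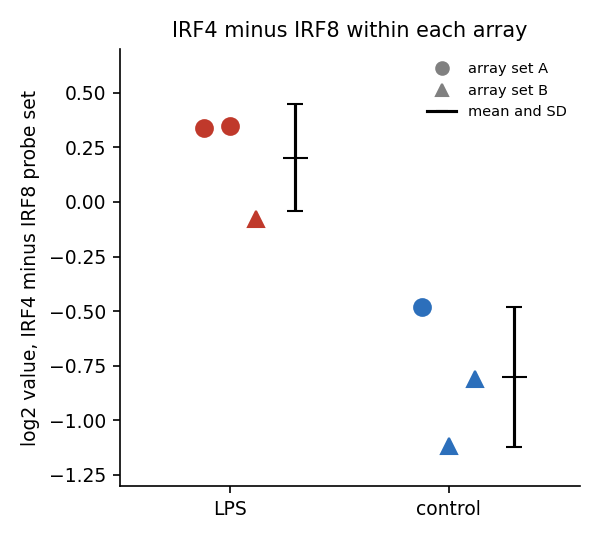
Log2 value of the brightest IRF4 probe set minus that of the IRF8 probe set on each array, LPS at the left and control at the right, with mean and SD beside the points (circles set A, triangles set B). LPS arrays run from -0.08 to 0.35 and control arrays from -1.12 to -0.48.

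The ubiquitous IRF1 and its antagonist IRF2 showed no change past the test. IRF1, an activator induced by interferon gamma, stood at 7.31, 7.38 and 7.26 on LPS arrays and at 7.33, 7.15 and 7.27 on control arrays, a difference of 0.07 (95% interval -0.08 to 0.22). Its second probe set gave 0.04, and both had overlapping groups. IRF2 had 8.84, 8.65 and 8.47 on LPS arrays and 9.0, 8.42 and 8.48 on control arrays. In each group the highest value was an array of set A, and the overall difference was 0.02, with -0.25 from set A alone and 0.02 from set B alone. Its 95% interval, from -0.27 to 0.32, was the widest among the 10 genes.

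The interferon-inducing factors IRF3 and IRF7 also stayed under the threshold. IRF3 had 8.84, 8.67 and 8.71 on LPS arrays and 8.94, 8.82 and 8.91 on control arrays. Its highest LPS value lay just above its lowest control, and the difference was -0.15 (95% interval -0.33 to 0.03, limma adjusted p = 0.705). IRF7 had 6.72, 6.82 and 6.81 on LPS arrays and 6.71, 6.78 and 6.72 on control arrays, a difference of 0.05 (95% interval -0.08 to 0.18). It stood 0.31 above the array medians, a dim signal in which a small induction could be compressed.

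IRF5 and IRF9, which act downstream of MYD88 and of the interferon receptors, gave differences near 0. The brightest IRF5 probe set had 8.30, 8.42 and 8.19 on LPS arrays and 8.50, 8.21 and 8.16 on control arrays, a difference of 0.01 (95% interval -0.20 to 0.22), and the 2 others gave 0.04 and 0.02. IRF9 had 6.89, 7.07 and 7.01 on LPS arrays and 6.81, 7.13 and 7.05 on control arrays, a difference of -0.01 (95% interval -0.18 to 0.17). The set A arrays LPS 1 and control 1 were its lowest in each group, with 0.17 from set A alone and -0.08 from set B alone. Another probe set carries the names RNF31 and IRF9 together and was not used. The limma adjusted p of the brightest probe sets of IRF1, IRF2, IRF5, IRF7 and IRF9 ran from 0.883 to 0.995. The intervals of these 5 genes leave room for changes of up to 0.18 to 0.32 on the log2 scale in size.

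**Figure D4:**
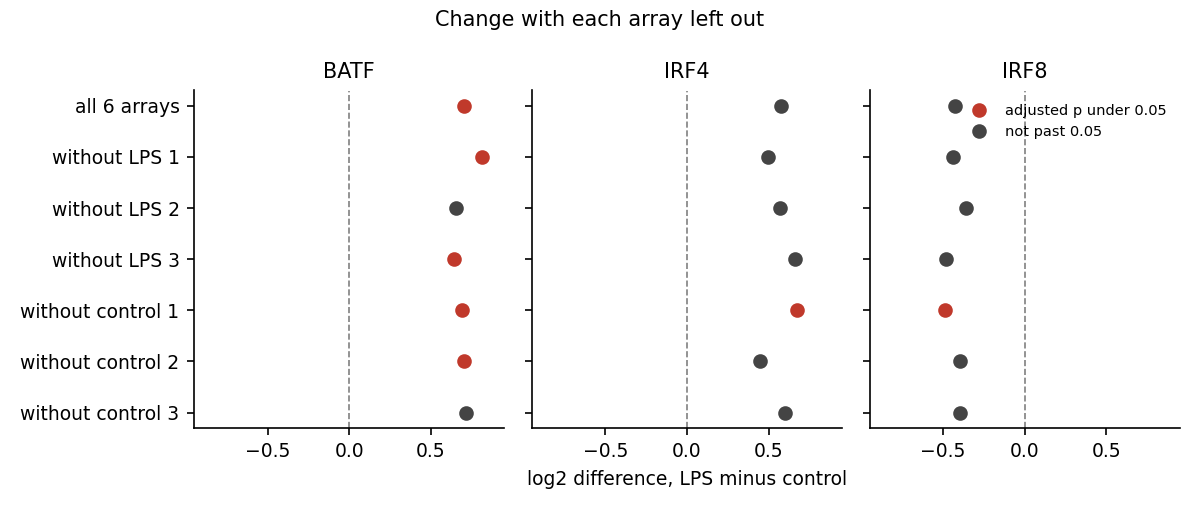
Log2 difference, LPS minus control, of BATF, IRF4 and IRF8 with all 6 arrays and with each array left out in turn (rows); red points have an adjusted p under 0.05. BATF stays between 0.64 and 0.81, IRF4 between 0.45 and 0.68 and IRF8 between -0.49 and -0.36.

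Promoter sequence was compared for the 6 members that have an entry in the RefSeq table (GRCh38.p14), IRF1, IRF4, IRF5, IRF8, IRF9 and BATF. Windows ran from 250 bases before to 50 after each start given there. For IRF5 and IRF8 all these windows lie downstream of the gene's first base, so the sequence before that base was not covered. Both strands were searched for the ISRE letters GAAANNGAAA, the ETS-IRF composite GGAANNGAAA, the AP-1 site TGANTCA, the interferon gamma activated site called GAS, TTCNNNGAA, and the kappa B consensus. Below are the 150 bases before the start of the risen BATF, of IRF4, and, as the member with most matches, of IRF1, written 5′ to 3′ with matches in capitals.
BATF (chr14:75522319-75522468, plus strand): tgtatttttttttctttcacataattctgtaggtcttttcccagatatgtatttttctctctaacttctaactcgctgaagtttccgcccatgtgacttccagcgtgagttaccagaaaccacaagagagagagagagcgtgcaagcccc
IRF4 (chr6:391602-391751, plus strand): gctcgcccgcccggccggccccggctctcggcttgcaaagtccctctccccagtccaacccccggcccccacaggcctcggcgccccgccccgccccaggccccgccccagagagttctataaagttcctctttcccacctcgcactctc
IRF1 (chr5:132490774-132490923, minus strand): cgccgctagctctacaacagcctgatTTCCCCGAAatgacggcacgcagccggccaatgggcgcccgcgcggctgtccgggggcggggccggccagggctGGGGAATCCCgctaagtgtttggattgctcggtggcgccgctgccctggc

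In IRF1 the capitals mark a GAS, TTCCCCGAA, and a kappa B match, GGGGAATCCC. IRF1 gave 0.07 here. IRF9 holds a GAS, TTCTGGGAA, and 1 of the 4 IRF5 windows an ETS-IRF match, TTTCGTTTCC on the opposite strand. No window of BATF, IRF4 or IRF8 holds any of the 5 motifs, which says only that these letters are not in these windows. The 2 IRF8 windows begin at chr16:85902580 and chr16:85902765, downstream of the gene's first base at 85899162. The IRF8 sequence before that base was therefore not searched. Of all 35116 windows in the table, 7.66% hold the GAS, 5.91% the kappa B consensus, 2.82% the ETS-IRF composite, 3.57% the ISRE and 7.71% the AP-1 site. The matches are descriptions and no binding was measured.

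Upstream of the factors, 19 of 21 listed kinases, adaptors and sensors were measured, and 1 rose, IKBKE, against 0.389% of all genes called. IKBKE, which encodes IKK-epsilon, the kinase of IRF3 and IRF7, had 8.81, 8.87 and 8.78 on LPS arrays and 8.29, 8.06 and 7.94 on control arrays. The groups were well apart, with a rise of 0.72 (limma adjusted p = 0.00735), and its other probe set rose by 0.64 (limma adjusted p = 0.00556). Its relative TBK1 gave 0.01. The endolysosomal transporter SLC15A4, which IRF5 activation needs, gave 0.35 (limma adjusted p = 0.131), the RNA sensor IFIH1 0.33 (limma adjusted p = 0.148) and CHUK 0.26 (limma adjusted p = 0.388), none passing. A block on the array sets, under which 2.02% of all genes were called, called 2 of the 19, IKBKE and SLC15A4 (limma adjusted p = 0.0125). The dimmer SLC15A4 probe sets gave 0.19 and -0.12 without the block, in opposite directions. They did not pass with it (limma adjusted p = 0.37 and 0.377). The dimmer IFIH1 probe sets gave 0.03 and 0.01 without the block. Of the 19, 16 lay above 0, where 10047 of all 19775 genes did. The median of the 19 was 0.084, where the median of all genes was 0.0016.

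Among 16 measured DNA-binding partners and cofactors of 18 listed, 0 passed the limma test and 2 had an unadjusted p under 0.05, where 9.56% of all genes had one. IRF2BP2, a corepressor first found through IRF2, gave 0.54 by its brightest probe set (limma adjusted p = 0.193), with 0.19 from set A alone and 0.63 from set B alone. Its 5 other probe sets ran from -0.03 to 0.39, none passing. BACH2, a repressor that competes for AP-1 type sites, gave -0.28, IRF2BPL gave -0.17, and SPIB, the ETS partner of IRF4 and IRF8, gave 0.30, with limma adjusted p from 0.618 to 0.641. The JUN proteins that pair with BATF gave -0.03 for JUN, 0.01 for JUNB and -0.21 for JUND, none passing, and PU.1, encoded by SPI1, gave 0.05. The array set block called 3 of the 16, against 2.02% of all genes. IRF2BP2 was higher at 0.41 (limma adjusted p = 0.0141). BACH2 at -0.39 and JUND at -0.32 were lower (limma adjusted p = 0.0131 and 0.0306). The dimmer BACH2 probe set gave -0.22 with the block and did not pass (limma adjusted p = 0.285).

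Of the 10 interferon receptors, JAK kinases and feedback genes 0 passed the limma test, where 0.389% of all genes did, and 3 had an unadjusted p under 0.05, against 9.56% of all genes. SOCS1, a feedback inhibitor of JAK kinases, gave -0.31 (limma adjusted p = 0.133), JAK2 0.29 (limma adjusted p = 0.355) and JAK1 -0.18 (limma adjusted p = 0.582). USP18, a brake on the type I interferon receptor, gave 0.15 (limma adjusted p = 0.62). With the array set block SOCS1 passed at -0.32 (limma adjusted p = 0.0234), 1 of the 10 against 2.02% of all genes. The other SOCS1 probe sets, all dimmer, gave -0.08 to -0.04 without the block. They did not pass with it (limma adjusted p from 0.652 to 0.837).

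The 28 ISRE-driven targets, all measured, moved in both directions, with 3 risen and 1 fallen, against 0.389% of all genes called in either direction, and a median of 0.021. IFIT3 rose by 1.05, IFIT1 by 0.47 and IFI44 by 0.33, all antiviral interferon-induced genes, with control levels from 5.98 to 6.45, within or below the range of the array medians. The dimmer IFIT3 probe set gave 0.54, which passed (limma adjusted p = 0.0124). The dimmer IFI44 probe set gave 0.11, which did not (limma adjusted p = 0.581). TRIM22, an antiviral ubiquitin ligase at a brighter level, fell by 0.57 (limma adjusted p = 0.0245). The interferon gene IFNB1 itself stood at 6.10 to 6.14 on LPS arrays and at 6.02 to 6.19 on control arrays, below the array medians, with a difference of 0.01. The brighter targets OAS2 and OAS1 gave -0.36 and -0.32 and TAP1 gave 0.36, none passing. The array set block called 8 of the 28, 4 higher and 4 lower, against 2.02% of all genes: TAP1 then passed at 0.33 (limma adjusted p = 0.025), OAS2 at -0.43 (limma adjusted p = 0.00183), OAS1 at -0.31 (limma adjusted p = 0.0488) and IFITM1, an antiviral membrane protein, at -0.36 (limma adjusted p = 0.0485).

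Of 13 listed B cell genes under IRF4 or IRF8 control, 12 were measured and 1 rose, against 0.389% of all genes called. CIITA, the transactivator of MHC class II genes, rose by 0.40 (limma adjusted p = 0.0316) by its brightest probe set, with the 2 dimmer ones at 0.15 and 0.10, not passing. BCL6, the germinal centre repressor, gave -0.31 (limma adjusted p = 0.321), the coactivator POU2AF1 -0.34 (limma adjusted p = 0.269) and EBF1 -0.34 (limma adjusted p = 0.387). PRDM1, the plasma cell regulator that IRF4 activates, gave 0.06 with a 95% interval from -0.10 to 0.22. With the array set block CIITA, POU2AF1, BCL6 and EBF1 were called, 4 of 12 against 2.02% of all genes. POU2AF1 was at -0.30 (limma adjusted p = 0.0207), BCL6 also at -0.30 (limma adjusted p = 0.0467) and EBF1 at -0.41 (limma adjusted p = 0.0229). The dimmer probe sets of CIITA (0.11 and 0.08), POU2AF1 (0.01) and BCL6 (-0.32 and -0.21) did not pass with the block. Those of EBF1 gave -0.33 and -0.36, which passed (limma adjusted p = 0.0365 and 0.00954), and -0.03, which did not (limma adjusted p = 0.932). The median of the 12 was 0.017.

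**Figure D5:**
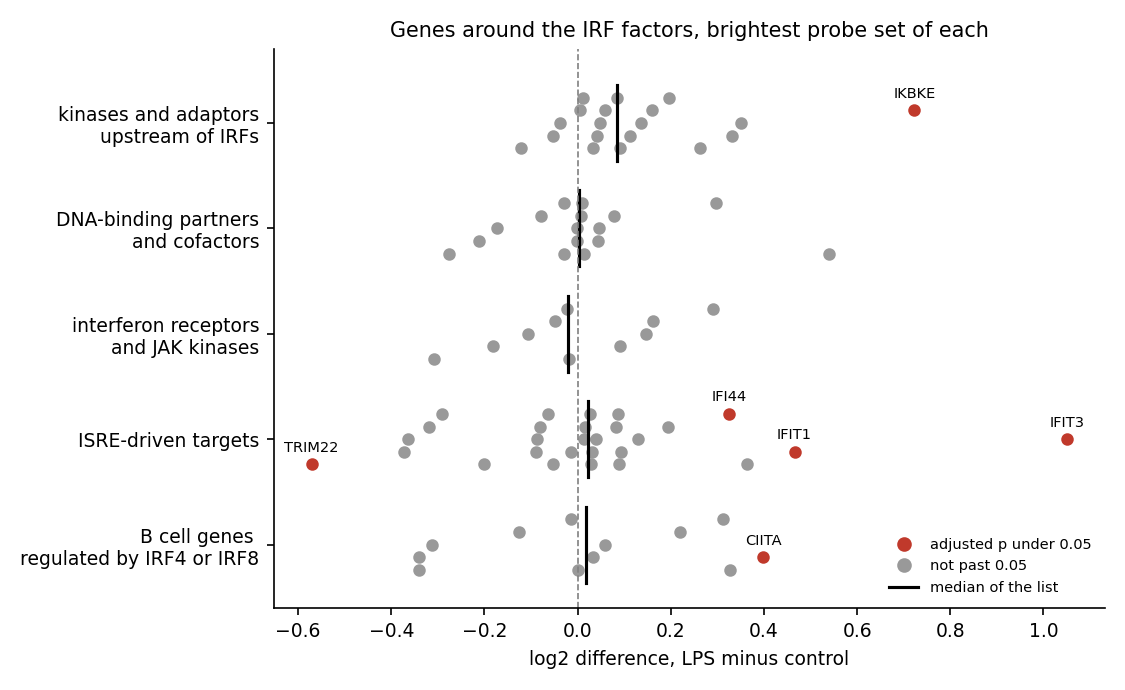
Log2 difference, LPS minus control, of the measured genes of 5 lists around the IRF factors (rows), each by its brightest probe set; red points are named and have an adjusted p under 0.05, and black bars are list medians. IKBKE, IFIT3, IFIT1, IFI44 and CIITA lie to the right and TRIM22 to the left, and the list medians lie between -0.021 and 0.084.

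The genes whose values over the 6 arrays were most like those of IRF4, among 12653 others above the median brightness, were IDH3A, MT1G, SPINDOC, HLA-DOA and PEA15, with Pearson correlations from 0.9930 to 0.9975. None of them passed the test without a block, with HLA-DOA, an MHC class II chain, at 0.53 (limma adjusted p = 0.0578) and the others between 0.17 and 0.28. Those most like IRF8 were PLEKHA7, MTERF1, ZCCHC18, FHOD3 and STAP1, with correlations from 0.9882 to 0.9917. STAP1, an adaptor of B cell signalling and also on the germinal centre marker list, gave -0.56 (limma adjusted p = 0.0675) and FHOD3 -0.38 (limma adjusted p = 0.0556). With the array set block HLA-DOA passed at 0.44 (limma adjusted p = 0.00299), STAP1 at -0.47 (limma adjusted p = 0.000841) and FHOD3 at -0.33 (limma adjusted p = 0.0101), and the other 7 of these 10 genes did not pass. Over 6 arrays this likeness is a description, since all genes share the arrays' group and set.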

How the data were processed

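RNA of 3 LPS and 3 control samples of BL-2 was hybridised to Affymetrix arrays after biotin labelling, per the labels' protocols. The deposited table holds 1 value per probe set and array, taken as log2 from its range, 5.46 to 14.81; background correction, summary and normalisation are not given in the sources used here. Depth has no counterpart on arrays, and their number limits the precision (median SE of a difference 0.063). The 62 control probe sets were left out. Symbols came from the platform annotation, updated through RefSeq (GRCh38.p14). The brightest probe set, by its mean over 6 arrays, stood for a gene.

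The test was limma 3.58.1 in R 4.3.3: group as the only term, a two-sided moderated test (empirical Bayes, variance trend on intensity), Benjamini-Hochberg over all 54613 probe sets, threshold 0.05. It was tested on simulated data with independent noise and no array sets, so that check says nothing of effects that arrays share. Members, lists, motifs and alternatives, the array set block included, were chosen with earlier results of these data known. Named were all members, list genes that passed or were among the 4 smallest p of a list, and the 5 genes most like IRF4 and IRF8. Others named (TBK1, the JUN proteins, SPI1, IFNB1, OAS1, OAS2, TAP1, IFITM1, PRDM1, MYBL1, SERPINA9, CD38, MME) were chosen after their values were seen. Array sets were parted at the widest gap, 0.22, in the mean of 18 hybridisation control probe sets. Alternatives were a replicate block, quantile normalisation, a filter on dim probe sets, no trend, the set block, a threshold of 0.10, other ways to represent a gene, and leaving out each array.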

Additional observations from a re-analysis of the deposited data

How the results depend on the processing

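The direction of BATF, IRF4 and IRF8 held under every alternative run, and BATF passed in all but 2 of them, without LPS 2 and without control 3. Of 129 values of the member genes under alternatives, 16 had the opposite sign to the reported one, all in IRF2, IRF5, IRF9 and BATF3 and none of them called. Where the report counts 144 probe sets called in all and 1 among the members, quantile normalisation gave 292 and 3, the array set block 734 and 3, and a threshold of 0.10 gave 265 and 2. The 3 members were BATF, IRF4 and IRF8. Leaving out an array gave 10 to 374 in all and 0 to 3 members; the 3 arose without control 1. The cause of these moves was not tested. The labels number the samples 1 to 3 in each group, and the numbers were not taken to pair the samples. The deviations of same-numbered samples correlated at 0.44, -0.04 and 0.23. These values cannot decide on pairing, because samples of different numbers were not compared. LPS 2 and control 2 also lie in different array sets. With the replicate number as a block 498 probe sets and 3 members were called. The shift of IRF4 minus IRF8 moved by less than its replicate SD (0.29) in each alternative run. Dim signals limit what can be said of BATF3, IRF7 and IRF9.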
